A study of Mus musculus with 4 samples.

Results

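Wnt3, Wnt3a, Wnt8a and Fgf8 encode secreted ligands of the primitive streak, and Flag-Sp5 binding was described in 4 genome windows named for them. The peaks taken were those of the deposited list whose midpoint fell in chromosome 11 from 103585000 to 103730000 (Wnt3), chromosome 11 from 59010000 to 59155000 (Wnt3a), chromosome 18 from 34650000 to 34760000 (Wnt8a) or chromosome 19 from 45761000 to 45868000 (Fgf8), all on mouse build mm9. These windows of 145, 145, 110 and 107 kb held 7 of the 9428 peaks in the list, with 3 at Wnt3a, 3 at Wnt8a, 1 at Fgf8 and 0 at Wnt3. The windows were set by position, but the loci were chosen with earlier results of these data known. No mm9 annotation was used here, so a peak is placed in a locus window and is not assigned to a promoter, exon, intron or UTR.

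The study mapped Flag-tagged Sp5 by chromatin immunoprecipitation and sequencing (ChIP-seq) in A2Lox.cre mouse embryonic stem cells, a line made for doxycycline-inducible expression of an inserted cDNA. Cells taken off mouse embryonic fibroblast feeders of FVB origin formed embryoid bodies in suspension, received doxycycline from day 2 for 24 h and were fixed on day 3 for 15 min in 1% formaldehyde. There were 2 libraries of Flag-Sp5 ChIP, made with 4 µg of the M2 anti-Flag antibody, and 2 input libraries made without antibody. The titles of the input libraries name Flag and embryonic stem cells but not Sp5. All 4 libraries carry the label of doxycycline induction. No Flag ChIP from uninduced or untagged cells was among them, so the antibody's own background and Flag-Sp5 binding cannot be told apart. The single peak list gives a chromosome, a start and an end per peak and no value per library. The depth is therefore unknown, no value below has a replicate error, and ChIP could not be tested against input. Expression of the 4 genes, and markers of the cells' identity, were not measured in these data.

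Sp5 belongs to the SP/KLF transcription factors, whose zinc fingers bind GC-rich boxes, and its own gene is a target of canonical Wnt signalling. In that pathway a Wnt ligand engages a Frizzled receptor with an Lrp co-receptor, β-catenin accumulates, and β-catenin acts with Tcf/Lef factors on target genes. In the gastrulating mouse embryo, Wnt3 is needed for the primitive streak to form. Wnt3a and Wnt8a act in the streak and in posterior mesoderm, and Fgf8, a ligand of Fgf receptors, is needed for cells to move away from the streak. The Wnt genes among them therefore encode inputs of the pathway that has the Sp5 gene as a target. All of these ligand genes, Fgf8 included, are also places where Sp5 could bind.

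RefSeq promoter sequences of GRCm38.p6, another build than that of the peaks, were matched by symbol for Wnt3 and Wnt3a, 2 of the 4 genes. They are shown because no promoter was matched for the other genes. The 2 windows lie on the same chromosome and had the same size. Whether the promoter letters bear on the 3 peaks of the Wnt3a window and the 0 of the Wnt3 window was not tested. Each run is the 250 bases before the annotated start, read 5′ to 3′ on the gene's own strand, and capitals mark GGGCGG boxes on either strand, with overlapping boxes all marked. The Wnt3 run is chr11:103773925-103774174 on the plus strand of GRCm38.p6, and the Wnt3a run is chr11:59290752-59291001 on the minus strand of GRCm38.p6.
Wnt3: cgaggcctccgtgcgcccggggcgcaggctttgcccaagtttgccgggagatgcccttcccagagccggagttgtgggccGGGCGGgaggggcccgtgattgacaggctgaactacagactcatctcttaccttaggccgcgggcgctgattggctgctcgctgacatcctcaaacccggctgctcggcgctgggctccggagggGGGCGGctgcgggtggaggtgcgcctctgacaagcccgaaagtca
Wnt3a: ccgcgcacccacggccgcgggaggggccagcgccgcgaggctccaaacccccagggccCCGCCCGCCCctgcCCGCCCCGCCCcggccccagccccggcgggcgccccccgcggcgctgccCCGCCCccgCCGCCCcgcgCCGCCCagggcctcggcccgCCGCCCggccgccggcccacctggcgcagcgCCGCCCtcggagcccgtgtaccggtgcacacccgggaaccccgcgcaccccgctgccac

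Both promoters held the GC box, a motif of SP/KLF factors. Wnt3 had 2 matches to GGGCGG in its 250 upstream bases and Wnt3a had 9, counting overlapping matches. The base composition differed as well, with 68.0% G or C upstream of Wnt3 and 87.6% upstream of Wnt3a, against a median of 52.4% over all promoters in the RefSeq table. In the whole promoter windows, which run to 50 bases after the start, the related box CCACCC had 1 match at Wnt3 and 0 at Wnt3a, and the Tcf/Lef-type motif CTTTGAA had 0 at either. Their neighbours Wnt9b, next to Wnt3, and Wnt9a, next to Wnt3a, had 3 and 5 GGGCGG matches. These matches describe the letters of the sequence and are not binding sites. The Wnt3 window held 0 listed peaks, also when extended by 50 kb on each side. No listed peak therefore covers a promoter lying in that stretch. Wnt3a is on the minus strand, so its start is at the gene's higher-coordinate end, and all 3 peaks lay below the window centre. The promoters were not placed on mm9, so whether a peak covers the Wnt3a promoter was not tested.

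The GC box was common in the promoters of both ligand families. Of 19 Wnt ligand genes listed, 15 were matched to a RefSeq promoter and 12 of these (80.0%) held GGGCGG on either strand. Of 22 Fgf ligand genes, 16 were matched and 11 (68.8%) held it. The share over all 27025 genes of the table was 38.2%. CCACCC was present in 8 of 15 Wnt promoters (53.3%), 5 of 16 Fgf promoters (31.2%) and 34.0% of all promoters. CTTTGAA was present in 0 of 15 Wnt promoters, 2 of 16 Fgf promoters (12.5%) and 5.93% of all promoters. The presence of a GC box was thus shared by Wnt3, by Wnt3a and by most of the other Wnt promoters matched.

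**Figure D1:**
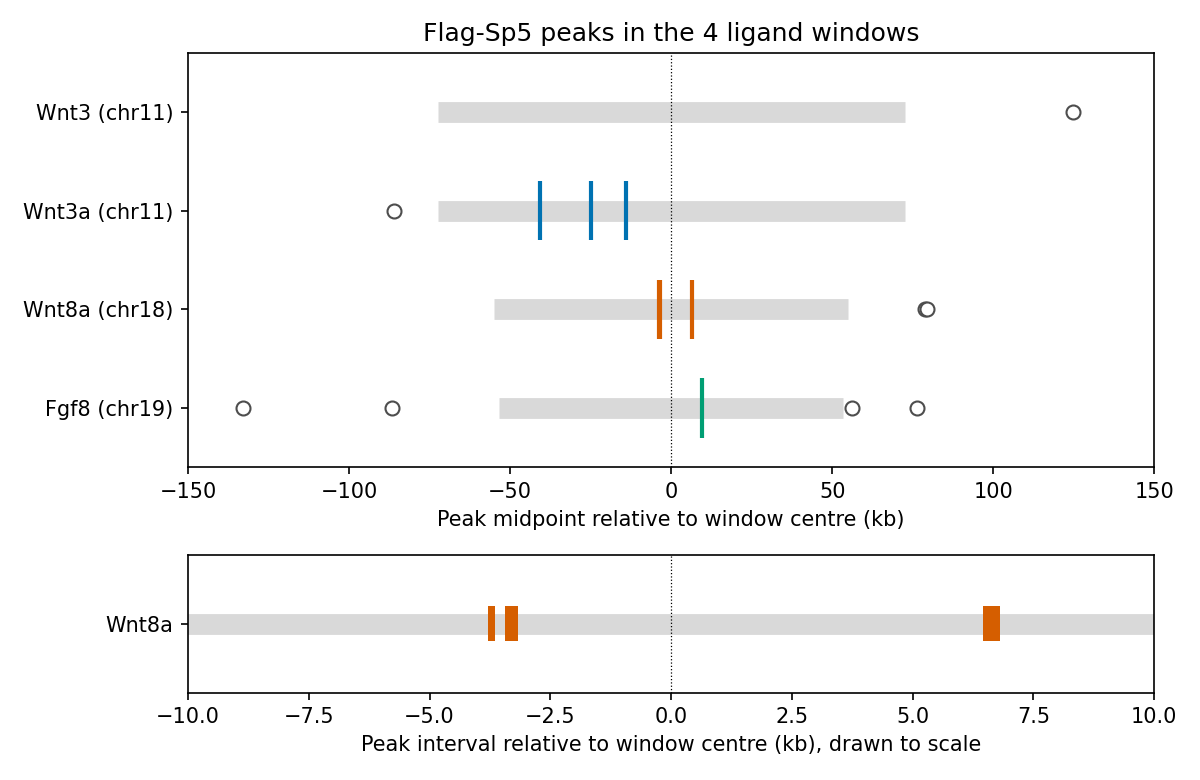
In the upper panel, position of Flag-Sp5 peaks in kb from the centre of each locus window, with the window as a grey bar, peaks inside it as vertical lines and peaks outside it within 150 kb as open circles. The Wnt3a peaks all lie left of the centre and the Wnt3 bar is empty, and in the lower panel, which draws the 3 Wnt8a intervals to scale within 10 kb of the centre, 210 bp separate the 2 left intervals.

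The Wnt8a window carried the peaks nearest to a window centre. The first peak ran from 34701215 to 34701355 on chromosome 18 and measured 141 bp. The second ran from 34701566 to 34701820 and measured 255 bp. These 2 peaks lay 3.72 and 3.31 kb from the window centre on its lower-coordinate side. Only 210 bp separated their intervals, and 408 bp their midpoints. The third peak, from 34711455 to 34711806, was on the other side of the centre at 6.63 kb and was the widest of the 7, at 352 bp. All 3 Wnt8a peaks thus fell within 10.3 kb of each other, near the middle of a 110 kb window.

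Whether the Wnt8a peaks lie in the gene could not be read from these data. The RefSeq length of Wnt8a is 5.74 kb, which is 5.21% of the window, and the place of the gene within the mm9 window is not given in the sources used here. A gene of that length centred in the window would reach 2.87 kb to either side, short of all 3 peaks. The close pair, at 3.72 and 3.31 kb, would then lie just beyond its end, and the third peak, at 6.63 kb, further off. A centred position was not tested, so the pair could lie at or in the gene. The protein-coding neighbours of Wnt8a in the RefSeq order are Fam13b and Nme5. The list had no other peak for 449 kb before the first Wnt8a peak. The next peaks after the window were a second close pair, from 34783756 to 34783900 and from 34784262 to 34784411, which lay 23.8 and 24.3 kb beyond its edge.

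The 3 Wnt3a peaks were spread more widely and all on one side. On chromosome 11 they ran from 59041718 to 59041888 (171 bp), from 59057305 to 59057626 (322 bp) and from 59068430 to 59068621 (192 bp). Their midpoints lay between 40.7 and 14.0 kb below the window centre, at 21.9%, 32.7% and 40.4% of the way along the window. No peak was listed in the higher-coordinate part of the window, and the next peak after the third was 250.3 kb away.

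Gaps between neighbouring Wnt3a peaks were 15.7 and 11.1 kb, so the 3 midpoints extended over 26.7 kb. The RefSeq length of Wnt3a is 42.7 kb (29.5% of the window), and its neighbours are Arf1 on the lower-coordinate side and Wnt9a, another Wnt ligand gene, on the higher. A gene of that length centred in the window would reach 21.4 kb to either side, which takes in the peak at 14.0 kb and not the other two. A centred position is an assumption that was not tested. Below the window a further peak, from 58996326 to 58996473, lay 13.6 kb beyond the edge.

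At Fgf8 a single peak was listed, from 45823974 to 45824199 on chromosome 19, with a width of 226 bp. It lay 9.59 kb above the window centre, and the RefSeq length of Fgf8 is 6.45 kb, so a centred gene would reach 3.23 kb and not the peak. Fbxw4 and Npm3 are the neighbours of Fgf8. One uncounted peak was close to the window's edge. This peak, from 45870649 to 45870827 (179 bp), had its midpoint 2.74 kb beyond the upper edge and so was not a member. Another 2 peaks, from 45890702 to 45890842 and from 45727784 to 45727933, lay 22.8 kb above and 33.1 kb below the window.

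The Wnt3 window held no listed peak, and neither did the 50 kb on either side of it. The last peak before it, from 103223323 to 103223566, was 362 kb below its edge. The first after it, from 103782084 to 103782231, was 52.2 kb above. RefSeq gives Wnt3 a length of 43.8 kb (30.2% of the window) between Wnt9b, a further Wnt ligand gene, and Nsf. With 0 peaks, the exact 95% Poisson upper limit is 3.69 peaks, or 2.54 per 100 kb, for counting error of peaks only. A peak enters the list only past a threshold that is not given in the sources used here, so the empty window is not a measurement of no binding.

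The stretch without peaks that holds the Wnt3 window measured 559 kb between midpoints. On chromosome 11, 47 of 682 distances between neighbouring peaks (6.89%) were at least as long, this stretch included. These long stretches made up 36.2% of the chromosome's span. Over the whole list 1242 of 9408 distances (13.2%) were at least as long and made up 56.8% of the span. A position without peaks for that distance was thus common in the list, and on chromosome 11 less than over the whole.

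Peak density per locus followed the order Wnt8a, Wnt3a, Fgf8, Wnt3. Wnt8a had 2.73 peaks per 100 kb (exact 95% Poisson interval 0.562 to 7.97), and Wnt3a had 2.07 (0.427 to 6.05). Fgf8 had 0.935 (0.0237 to 5.21), and Wnt3 had 0 (up to 2.54). The intervals of all 4 overlapped, so the order of the loci lay within counting error. Together the 4 windows held 1.38 peaks per 100 kb (0.555 to 2.84), against 0.368 per 100 kb of span over all chromosomes. Chance of this difference was not tested, since the loci were chosen with results of the list known.

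Each locus was next set against its own chromosome. Chromosome 18 had 0.327 peaks per 100 kb, and the Wnt8a window was at 8.34 times that density (Poisson interval 1.72 to 24.4). Chromosome 11 had 0.576 per 100 kb, the highest of the 3 chromosomes, and the Wnt3a window was at 3.59 times (0.741 to 10.5). Chromosome 19 had 0.442 per 100 kb, and the Fgf8 window was at 2.12 times (0.0536 to 11.8). The interval lay above 1 for Wnt8a and took in 1 for Wnt3a and Fgf8. Poisson intervals treat peaks as independent and may be too narrow for a list with close pairs, and chance was not tested. Whether the Wnt8a interval lay above 1 varied with the setting. With peaks less than 500 bp apart merged, Wnt8a had 2 peaks and a ratio of 5.70 (0.691 to 20.6), which takes in 1 as well. With only peaks wider than the list median, which leaves out the narrower of the pair, 2 peaks gave a ratio of 11.4 (1.38 to 41.2), above 1. For Wnt3, where chromosome 11 gives a mean of 0.835 peaks in 145 kb, the upper limit of the ratio was 4.42.

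**Figure D2:**
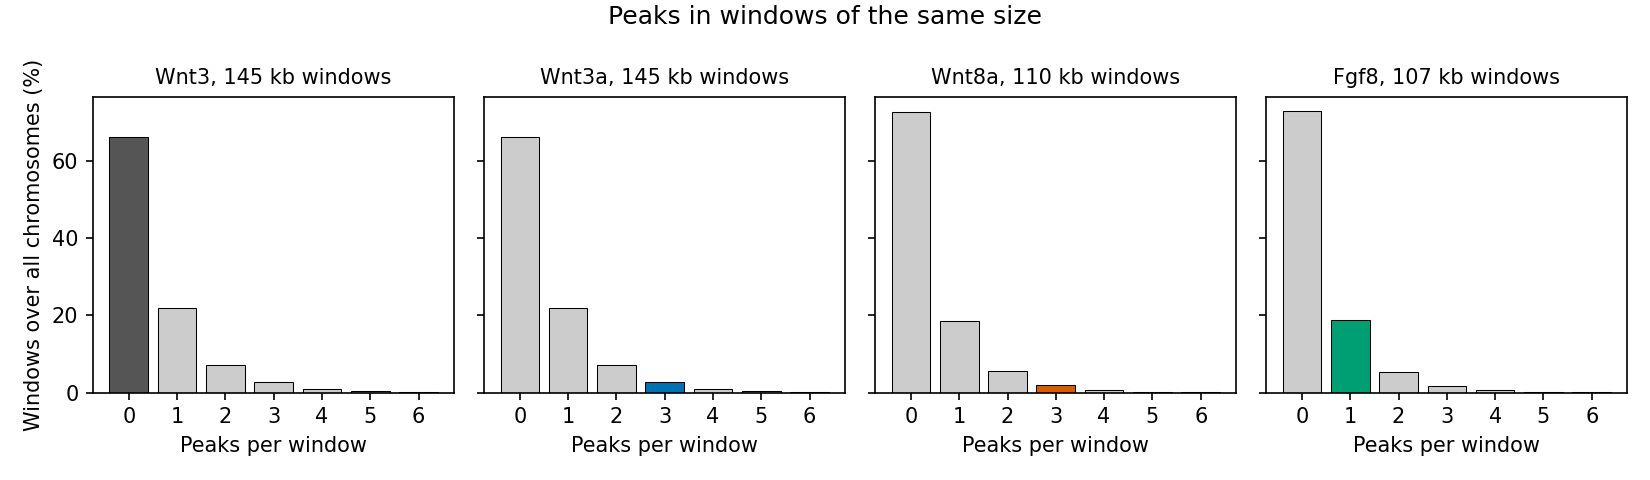
Share of windows over all 20 chromosomes (vertical axis, %) by number of peaks per window (horizontal axis), for windows of the size of each locus window; windows with more than 6 peaks are not drawn. The coloured bar is the number of peaks at the locus itself, which is the commonest value of 0 for Wnt3, the value 1 for Fgf8 and the value 3 for Wnt3a and Wnt8a.

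Same-size windows laid side by side along each chromosome gave the background for these counts. Of 17674 windows of 145 kb, 33.6% held at least 1 peak and 4.50% held at least 3, the number at Wnt3a. On chromosome 11 itself, 69 of 817 windows (8.45%) held as many as Wnt3a. The Wnt3 count of 0 was shared by 66.4% of all such windows and by 426 of 817 (52.1%) on chromosome 11, so an empty window was the commonest outcome there. Among windows with any peak, 13.4% reached the 3 peaks of Wnt3a. With only peaks wider than the list median, 1 Wnt3a peak was left, and 19.8% of all windows held as many.

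The Wnt8a count was reached by few windows as listed, and by more once its close pair was merged. At least 1 peak was found in 27.1% of 23298 windows of 110 kb, and at least 3 in 3.01%. Among windows with any peak, 11.1% reached the 3 peaks of Wnt8a. On chromosome 18, 5 of 775 windows (0.645%) held 3 or more. With peaks less than 500 bp apart merged, the 2 peaks left at Wnt8a were reached by 8.01% of all windows and by 53 of 775 (6.84%) on chromosome 18. With only peaks wider than the median, the 2 left were reached by 3.37% of all windows and by 17 of 775 (2.19%) on chromosome 18. For Fgf8, at least 1 peak was found in 26.9% of 23952 windows of 107 kb and in 175 of 537 (32.6%) on chromosome 19, so a window with a peak was a frequent outcome. With only peaks wider than the median, the Fgf8 share over all windows was 15.4%. Each of these shares describes the list, and windows are not replicates.

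The share of windows that reached a locus count varied with the chromosome chosen. It ran from 0.451% on X to 8.45% on chromosome 11 for the 3 peaks of Wnt3a, and from 0.274% on X to 6.31% on chromosome 11 for those of Wnt8a. For the 1 peak of Fgf8 it ran from 9.25% on X to 39.1% on chromosome 11. Empty windows of 145 kb, like that of Wnt3, made up 52.1% on chromosome 11 and 88.0% on X. The 2 chromosome 11 loci therefore stood on the chromosome where a window most often held peaks.

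**Figure D3:**
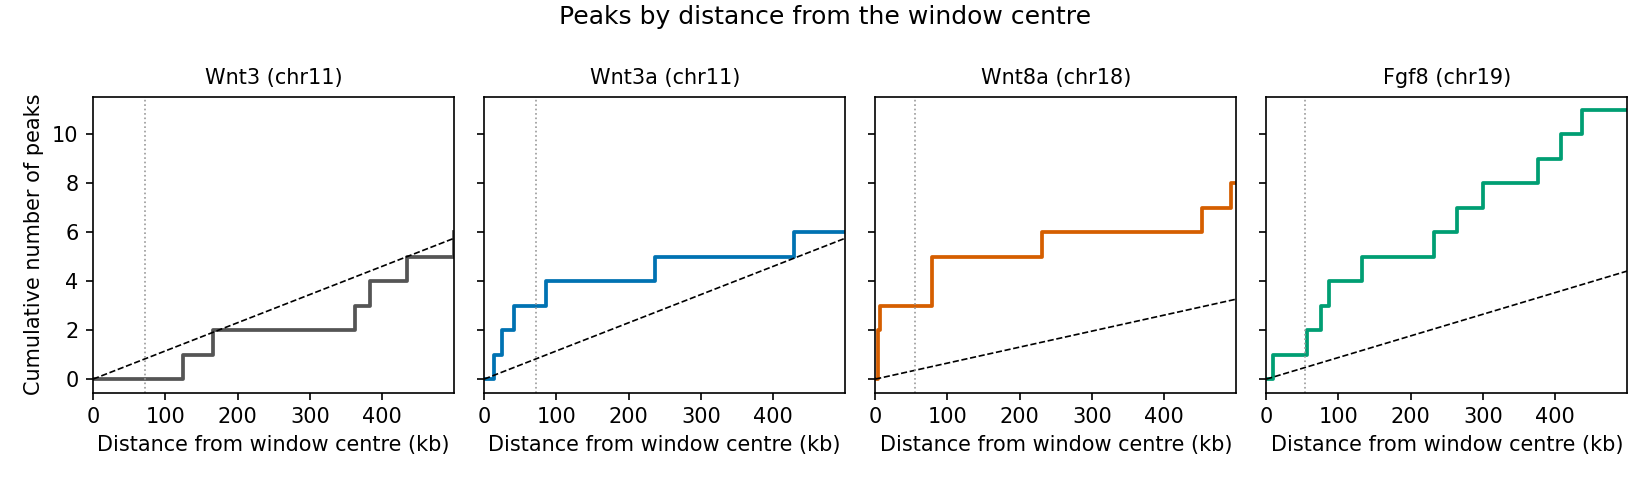
Cumulative number of peaks (vertical axis) by distance in kb from the centre of each window (horizontal axis), as a coloured step line; the dashed line is the mean for the density of that chromosome and the dotted vertical line the window's edge. The Wnt8a and Fgf8 lines stay above the dashed line from about 10 kb on. The Wnt3a line is above it from its first peak at 14.0 kb on but close to it at 500 kb, and the Wnt3 line starts beyond 100 kb.

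Counts at growing distances from the window centre were set beside the mean that the chromosome's density gives. Within 50 kb of the centre, Wnt8a had 3 peaks against a mean of 0.327 for chromosome 18, and within 500 kb it had 8 against 3.27. Fgf8 had 1 peak within 50 kb against 0.442, 4 within 100 kb against 0.884, and 11 within 500 kb against 4.42. Of these 11 peaks, 1 was in the Fgf8 window of 107 kb, and the rest lay in a far larger stretch around it. For Wnt8a and Fgf8, the lower exact Poisson limit at 500 kb, 3.45 and 5.49 peaks, was above the chromosome mean. Such limits treat peaks as independent, while 7.63% of listed peaks had a neighbour within 1 kb, so the limits may be too narrow. These distances were added after the data were seen, and chance was not tested. With close peaks merged, Wnt8a had 6 peaks within 500 kb, and the lower limit of 2.20 was below the mean of 3.19. With only peaks wider than the median it had 5, and the lower limit of 1.62 was just above the mean of 1.59.

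On chromosome 11 the counts came close to the chromosome's mean as the distance grew. Wnt3a had 3 peaks within 50 kb against 0.576, and 6 within 500 kb against 5.76. Wnt3 had 0 within 100 kb against 1.15, 2 within 250 kb against 2.88 and 6 within 500 kb against 5.76. The nearest peak to the Wnt3 centre was 125 kb away, against 14.0 kb for Wnt3a, 9.59 kb for Fgf8 and 3.31 kb for Wnt8a. Of the 6 peaks within 500 kb of the Wnt3 centre, 5 were on the higher-coordinate side. At Wnt3a the sides were reversed, with 5 of 6 peaks on the lower-coordinate side.

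**Figure D4:**
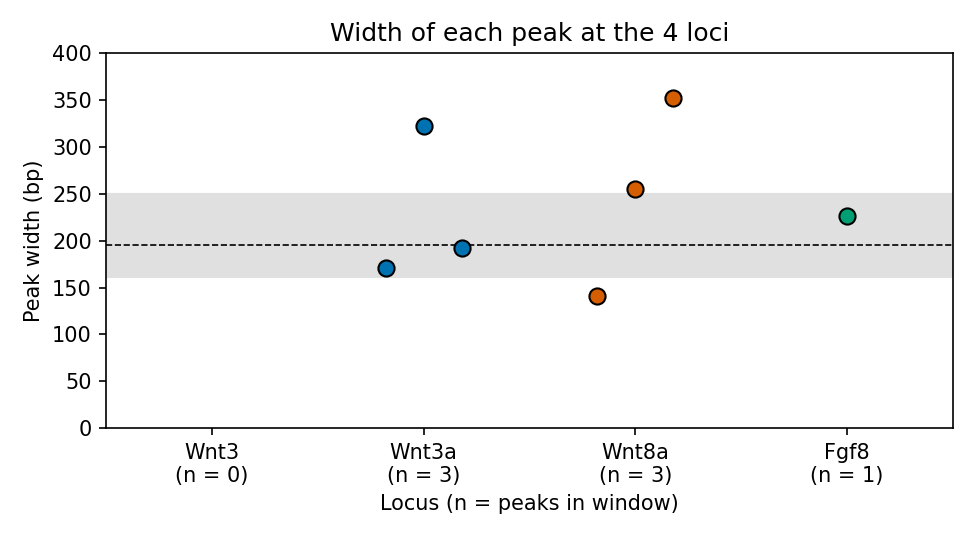
Width in bp (vertical axis) of each peak at the 4 loci (horizontal axis), 1 point per peak; the grey band is the central 50% of all 9428 peaks and the dashed line their median of 195 bp. Of the 7 peaks, 4 lie above the median, and the narrowest, at Wnt8a, has the smallest width of the list.

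The widths of the 7 peaks covered much of the range usual in the list. They ran from 141 to 352 bp with a median of 226 bp, against a median of 195 bp and an upper quartile of 250 bp for all peaks. Wider than the list median were 4 of 7 (57.1%), against 49.6% of all peaks. The widest, the third Wnt8a peak, was wider than 92.5% of the list, and the middle Wnt3a peak of 322 bp was wider than 89.3%. Median widths were 255 bp at Wnt8a (3 peaks), 192 bp at Wnt3a (3 peaks) and 226 bp at Fgf8 (1 peak).

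Wide and narrow peaks occurred within the same locus. The first Wnt8a peak had the smallest width in the list, 141 bp, which 677 peaks (7.18%) share, and on chromosome 18 the share is 5.73%. Its partner in the close pair was 255 bp wide. At Wnt3a the 322 bp peak stood between peaks of 171 and 192 bp. The widths are those of called intervals and are no measure of the strength of binding. The covered length was 748 bp at Wnt8a (0.680% of the window), 685 bp at Wnt3a (0.472%) and 226 bp at Fgf8 (0.211%).

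The 3 peaks were more compact at Wnt8a than at Wnt3a. Their midpoints extended over 10.3 kb at Wnt8a and over 26.7 kb at Wnt3a, and with 1 such run at each locus the difference has no error. Of 9388 runs of 3 neighbouring peaks in the list, 205 (2.18%) were as compact as that of Wnt8a and 534 (5.69%) as that of Wnt3a. On their own chromosomes these were 3 of 277 runs (1.08%) on chromosome 18 and 50 of 681 (7.34%) on chromosome 11. Each of these counts takes in the run of the locus itself. Such runs overlap each other and are given as a description, and after merging Wnt8a had no run of 3 in its window.

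The close pair of Wnt8a was of a kind that recurs in windows with 3 peaks. Of 460 windows of 110 kb with exactly 3 peaks, 91 (19.8%, 95% Wilson interval 16.4 to 23.7%) held a pair of midpoints within 1 kb. Over the list, 7.63% of peaks had their nearest neighbour within 1 kb. A nearest neighbour closer than the 408 bp of this pair was found for 2.84% of the peaks. Whether the pair is a single bound stretch called as 2 peaks was not tested, since the list has no read counts.

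The other 5 peaks had neighbours at distances usual for the list or closer. Nearest-neighbour distances were 9.94 kb for the third Wnt8a peak, 15.7, 11.1 and 11.1 kb for the Wnt3a peaks and 46.7 kb for the Fgf8 peak. The median over all peaks was 46.9 kb and the lower quartile 11.1 kb. The Fgf8 peak thus stood at the median of the list. No other peak lay within 10 kb for 4 of the 7 peaks, a smaller share than the 76.2% of the list.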

How the data were processed

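The authors deposited 1 peak list for the 4 libraries, whose values are other than counts: the chromosome, start (0-based) and end of each called peak. The build, mm9, and the tools Bowtie, Picard, MACS2 and HOMER, named without versions or roles, are stated per the submitters' processing notes. For the calling threshold and the pooling of libraries no source used here gives a value.

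The 4 windows were applied to peak midpoints, and coordinates are printed 1-based. The loci, gene lists and motifs were chosen with earlier results of these data known. Every peak in a window is named. Same-size windows were laid from the first to the last peak of each chromosome, whole windows only. They were not matched to the loci for gene content. Exact Poisson and Wilson intervals (95%) reflect the counting of peaks alone and treat the counted items as independent. The distances around window centres and the runs of 3 peaks were added after the data were seen. No significance test was run, because the list has no value per library. Depth per library is unknown.

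RefSeq tables of GRCm38.p6 gave gene lengths, neighbours and promoter sequences, which were not aligned with the mm9 peaks. Planned scoring of ligand genes for peaks within 50 kb was not run without an mm9 annotation. Python 3.11.15, pandas 2.3.3 and SciPy 1.17.1 were used, and the counting was tested on 20 simulated lists. Alternatives merged close peaks, kept wider peaks, or changed the window or grid.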

Additional observations from a re-analysis of the deposited data

How the results depend on the processing

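The number of peaks at Wnt3 was 0 under all 5 alternatives tried for it. Of these, merging peaks, keeping wider peaks and shortening the window could not add a peak to an empty window, so they are no check of that count. Merging peaks less than 500 bp apart joined the Wnt8a pair, which left 2 peaks there and 6 in all, with a median width of 479 bp at Wnt8a. With it, 8.01% of same-size windows held as many peaks as Wnt8a, and 4.1% as many as Wnt3a. With only peaks wider than the median, Wnt3a kept 1 peak and the 4 loci 4, and as many peaks were then found in 19.8% of windows for Wnt3a, 3.37% for Wnt8a and 15.4% for Fgf8. Extending each window by 50 kb on each side gave 5 peaks at Wnt8a, 4 at Fgf8 and 13 in all, so the Fgf8 count rests on where the window ends. Restriction to the same chromosome gave 8.45% for Wnt3a, 0.645% for Wnt8a and 32.6% for Fgf8, and a grid shifted by 0.5 windows gave 2.74% for Wnt8a. The cause of these shifts was not tested beyond what the settings remove or add. The median spacing at Wnt8a, 5.17 kb over 2 spacings, became 10.1 kb with merged peaks and 9.94 kb with wider peaks only, 1 spacing each. Apart from spacings, the values not named stayed within 1.5 times the reported count, within the counting interval of the share or at the same median width, and the share for Wnt3 is 100% by construction. Merging, and keeping wider peaks only, for the ratios to the chromosome's density were added after seeing the data. No median width at Wnt3 and no spacing at Wnt3 or Fgf8 could be given, and Wnt3a kept too few wider peaks for a spacing. No paired analysis was possible because libraries are not separated in the deposited peaks, and leaving out a replicate was likewise not possible. The unknown threshold and depth limit what an absent peak can show.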
